A study of Homo sapiens with 4 samples.

Results

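The miR-17-92 cluster is a group of 6 microRNA hairpins cut from 1 primary transcript on human chromosome 13. Its members here are all table rows named miR-17, miR-18a, miR-19a, miR-20a, miR-19b or miR-92a, whatever the arm or copy number. The rule gave 13 mature strands of 1345 in the table, of which 12 can come from chromosome 13. The remaining strand, miR-19b-2-5p, belongs to a copy of miR-19b on the X chromosome. The data are 4 small-RNA sequencing libraries of mature miRNAs from HCT116, a colorectal carcinoma cell line. Each was made from cells with a short hairpin RNA (shRNA) that doxycycline switches on and that targets SAE2, the catalytic subunit of the enzyme that activates SUMO for attachment to proteins. The 2 plus libraries are read as cells given doxycycline, replicate 1 with a label that names no shRNA number and replicate 2 of the sh2 line. The 2 minus libraries are read as cells of the sh1 line (replicate 1) and the sh2 line (replicate 2) without doxycycline. The labels give the same treatment of 3 days for every library, so this reading rests on the words plus and minus. No cells given doxycycline without an SAE2 shRNA were analysed here, and SAE2 mRNA is not seen by miRNA libraries. Less of a strand per cell and fewer cells that make it cannot be told apart in these bulk libraries.

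The primary transcript of the cluster, MIR17HG, is known to be activated by MYC and E2F factors and is amplified or high in many tumours, colorectal cancer included. The nuclear enzyme DROSHA cuts each hairpin out of it, DICER cuts off the loop, and 1 strand of the duplex, the main strand, is usually kept by an Argonaute protein while the minor strand is lost. A main strand finds its mRNA targets through its seed, bases 2 to 8. The seeds divide the cluster into 4 families: miR-17 with miR-20a, which repress cell-cycle inhibitors such as CDKN1A, miR-18a, miR-19a with miR-19b, and miR-92a.

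The mature sequences are shown in transcript order, from RefSeq on GRCh38.p14, because seed and arm are the features compared below. Capitals mark the seed. For each hairpin the main strand is given first.
miR-17-5p: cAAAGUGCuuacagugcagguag
miR-17-3p: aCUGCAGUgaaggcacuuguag
miR-18a-5p: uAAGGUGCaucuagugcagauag
miR-18a-3p: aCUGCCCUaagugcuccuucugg
miR-19a-3p: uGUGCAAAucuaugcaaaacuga
miR-19a-5p: aGUUUUGCauaguugcacuaca
miR-20a-5p: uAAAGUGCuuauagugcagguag
miR-20a-3p: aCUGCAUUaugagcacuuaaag
miR-19b-3p: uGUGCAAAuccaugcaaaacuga
miR-19b-1-5p: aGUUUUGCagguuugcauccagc
miR-92a-3p: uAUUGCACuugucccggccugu
miR-92a-1-5p: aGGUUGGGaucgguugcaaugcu
The main strand lies on the 5p arm in miR-17, miR-18a and miR-20a and on the 3p arm in miR-19a, miR-19b and miR-92a. miR-17-5p and miR-20a-5p match at 21 of 23 positions and differ by C1U and C12U, counted from the 5′ end of miR-17-5p. miR-19a-3p and miR-19b-3p match at 22 of 23 positions and differ by U11C, counted from the 5′ end of miR-19a-3p. miR-18a-5p differs from miR-17-5p inside the seed by A4G, counted from the 5′ end of miR-17-5p. The 6 hairpins span 787 bases of the host gene MIR17HG on the plus strand, at chr13:91350605-91351391 of GRCh38.p14, and neighbours are 35 to 92 bases apart. miR-19b-3p and miR-92a-3p are also encoded, base for base, by hairpins on chromosome X, so their values can hold both copies.

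The deposited values are normalised read counts on a scale shared by all libraries. They summed to 9833885 and 10519207 in plus replicates 1 and 2 and to 9700472 to 9847531 in the minus libraries, with 1 read worth 0.9445 to 1.027 normalised counts. Among 709 miRNAs that averaged 10 or more, 107 fell and 95 rose in plus against minus libraries. The split was 83 and 121 under median-ratio scaling. Their median log2 change was −0.03. The 5 epithelial markers of the miR-200 family summed to 307103 and 307233 in the plus and 272819 and 262885 in the minus libraries. The 4 stromal and endothelial markers summed to 14091 and 16911 in the plus and 16423 and 16493 in the minus libraries, where miR-143-3p and miR-199a-3p rose, miR-145-5p fell and miR-126-3p did not pass. The blood markers summed to 1022 and 1191 in the plus and 991 and 1207 in the minus libraries, and those of muscle, liver and neurons to at most 58.2 in a library. The 3 intestinal markers miR-192-5p, miR-194-5p and miR-215 rose, with sums of 10796 and 10557 in the plus libraries, against 6725 and 6019 in the minus libraries, and the part of the epithelial, intestinal and stromal markers in the results below was not tested.

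The cluster was abundant, and most of it was lower in the plus libraries. Its 13 strands made up 1.95% and 1.98% of all normalised counts in plus replicates 1 and 2, against 2.52% and 2.43% in minus replicates 1 and 2. Tests used limma on log2(normalised count + 1), two-sided, with p-values adjusted by Benjamini-Hochberg over all 709 miRNAs and a threshold of 0.05. Of the 13 strands, 11 reached the level needed for the test. Of these, 6 fell, none rose and 5 did not pass, where 15.1% of all tested miRNAs fell and 13.4% rose. The median log2 change was −0.36 for the 11 strands. Both plus libraries lay below both minus libraries for 9 of the 11, where 33.9% of all tested miRNAs did so and 29.1% lay the other way round.

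**Figure D1:**
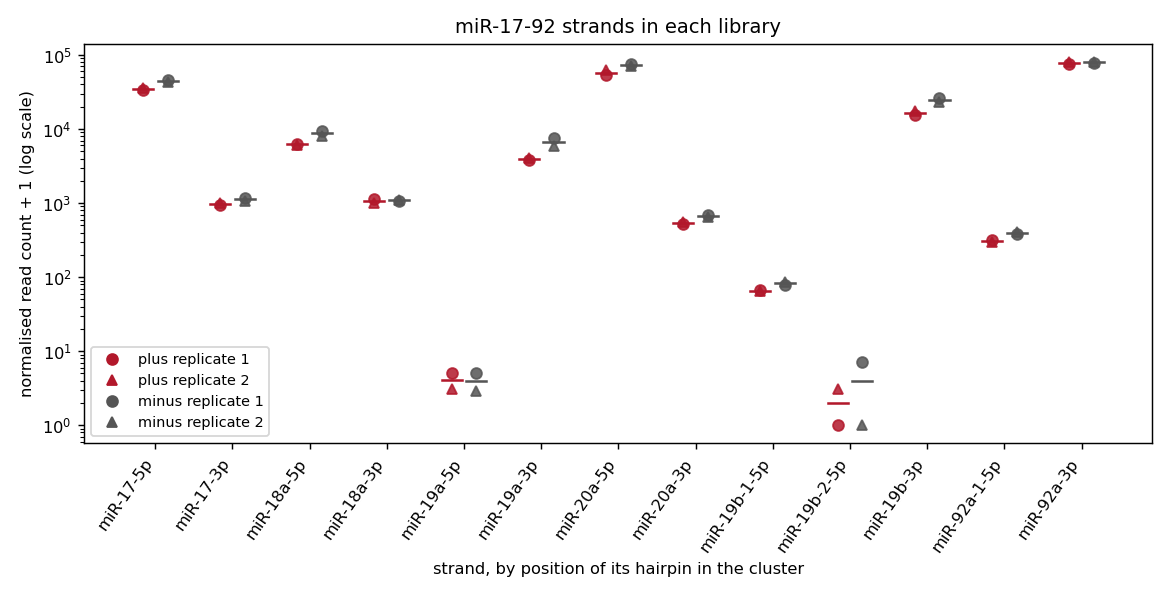
Normalised read count plus 1 (log axis) of each of the 13 strands in the 4 libraries, plus in red and minus in grey, with circles for replicate 1, triangles for replicate 2 and a bar at each group mean. Main strands sit between 3831 and 80168, minor strands at most at 1177, and miR-92a-3p is at about the same height in all 4 libraries.

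The order of the levels was the same in both groups for the main strands: miR-92a-3p, miR-20a-5p, miR-17-5p, miR-19b-3p, miR-18a-5p and miR-19a-3p, from high to low. No neighbours in this order overlapped over the 2 libraries of a group. All are 22 or 23 bases long, so levels need no correction for length, but strands can differ in how well adaptors are ligated to them. miR-92a-3p ranked 28 and miR-19a-3p 95 among the 1345 strands by mean.

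The miR-17 seed is carried by 2 main strands of the cluster, and both fell by about the same amount. miR-17-5p stood at 33435 and 35396 normalised counts in plus replicates 1 and 2, against 45566 and 42727 in minus replicates 1 and 2. Both plus libraries were below both minus libraries, with a log2 change of −0.36 (SE 0.081, limma adjusted p = 0.000687). miR-20a-5p stood at 53308 and 61969 in the plus libraries, against 75986 and 72202 in the minus libraries. The groups did not overlap, plus replicate 1 was the lowest library, and the log2 change was −0.37 (SE 0.083, limma adjusted p = 0.000739).

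miR-18a-5p, whose seed differs from theirs by 1 base, also fell. It had 6336 and 6150 normalised counts in the plus libraries, against 9475 and 8075 in the minus libraries. Its log2 change was −0.49 (SE 0.090, limma adjusted p = 4.10e-05), and the minus libraries lay farther from each other than the plus libraries did.

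The miR-19 strands showed the largest falls among the 11 tested strands. miR-19a-3p had 3831 and 4123 normalised counts in the plus libraries, against 7632 and 5861 in the minus libraries. Its mean in the plus libraries was 58.9% of that in the minus libraries, with a log2 change of −0.75 (SE 0.099, limma adjusted p = 6.92e-08). Over all tested miRNAs, 6.35% had a change as low as this or lower. miR-19b-3p had 15636 and 17490 normalised counts in the plus libraries, against 26638 and 23078 in the minus libraries. The plus libraries were again both lower, with a log2 change of −0.58 (SE 0.086, limma adjusted p = 7.78e-07).

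miR-92a-3p, the last and most abundant member, did not pass. It had 76211 and 79828 normalised counts in the plus libraries, against 79256 and 80168 in the minus libraries. The groups overlapped, and the log2 change was −0.03 with a 95% interval of −0.19 to 0.13 (limma adjusted p = 0.814). The change was 0.03 under median-ratio scaling and −0.14 under quantile normalization, where it was called a fall.

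These calls rest on a spread pooled over miRNAs. Without plus replicate 1 or without plus replicate 2, none of the 11 strands was called. In these fits 1 fell and 6 rose, or 1 fell and 7 rose, among all miRNAs tested. With no filter on low values or no mean-variance trend none of the 11 was called either, and miR-18a-5p, miR-19a-3p and miR-19b-3p were the 3 called without minus replicate 1. The direction was kept in each of these fits by the 5 main strands that fell.

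The composition of the cluster differed between the groups. Among the 6 main strands, miR-92a-3p made up 40.4% and 38.9% in plus replicates 1 and 2, against 32.4% and 34.5% in minus replicates 1 and 2. miR-19b-3p made up 8.28% and 8.53% in the plus libraries, against 10.9% and 9.94% in the minus libraries. miR-19a-3p made up 2.03% and 2.01% in the plus libraries, against 3.12% and 2.53% in the minus libraries. For all 6 main strands the shares in the plus libraries did not overlap those in the minus libraries, but these are not 6 separate results. By normalised count, 33.9% of all tested miRNAs were lower in both plus libraries than in both minus libraries, and 29.1% were higher. Only the share of miR-92a-3p was higher in the plus libraries. The shares are parts of a whole, so a higher share of miR-92a-3p goes with lower shares of other strands.

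To test such differences, the change of each strand was set against that of another strand in the same libraries, so that scaling by a library factor cancels. Relative to miR-17-5p, 3 strands of the cluster differed. Of all tested miRNAs, 37.9% were higher and 3.11% lower relative to miR-17-5p. miR-92a-3p changed by 0.33 (log2) more than miR-17-5p (SE 0.091, limma adjusted p = 0.00288), and miR-18a-3p by 0.33 more (SE 0.13, limma adjusted p = 0.0306). The adjusted p for miR-18a-3p was 0.0757 with the replicate number as a block. miR-19a-3p changed by −0.39 relative to miR-17-5p (SE 0.11, limma adjusted p = 0.00215), and miR-19b-3p by −0.23 (limma adjusted p = 0.0505). These calls were lost without minus replicate 1 and without plus replicate 1, and that of miR-19a-3p was also lost without plus replicate 2.

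All 15 pairs of main strands were then compared, a step chosen after the data were seen. The difference of a pair is the same whichever strand serves as the base line, but its pooled spread is not, so each pair was fitted both ways. Of the 15 pairs, 5 differed both ways, and these were miR-92a-3p against each of the other main strands. Its change exceeded that of miR-18a-5p by 0.46 (limma adjusted p = 0.0164 with miR-18a-5p and 0.00522 with miR-92a-3p as base line). It exceeded that of miR-19a-3p by 0.72 (limma adjusted p = 0.0107 and 0.000876), that of miR-20a-5p by 0.33 (0.0398 and 0.00877) and that of miR-19b-3p by 0.55 (0.00240 and 0.000876). Of all tested miRNAs, 43.9% were higher relative to miR-18a-5p, 57.5% relative to miR-19a-3p, 32.9% relative to miR-20a-5p and 50.8% relative to miR-19b-3p, and 10.6% were lower relative to miR-92a-3p. Of these 5 pairs, 0 differed both ways without plus replicate 1 or without a mean-variance trend, and 1 did when plus replicate 2 was left out. Leaving out minus replicate 1 kept 2 of them, and leaving out minus replicate 2 kept 4. Under quantile normalization, and with no filter on low values, 4 of the 5 pairs differed both ways. With the replicate block the adjusted p against the base lines miR-19a-3p, miR-20a-5p and miR-19b-3p was 0.0921, 0.0772 and 0.0541, so 2 pairs differed both ways. The call between miR-19a-3p and miR-17-5p held in 1 direction, with an adjusted p of 0.158 when miR-19a-3p was the base line. That between miR-19a-3p and miR-20a-5p likewise had an adjusted p of 0.0397 with miR-20a-5p, relative to which 1.84% of all tested miRNAs were lower, and 0.171 with miR-19a-3p as base line. Of the 15 pairs, 8 differed neither way. They include the pairs that share a seed and also pairs that do not, such as miR-18a-5p with miR-17-5p. miR-20a-5p differed from miR-17-5p by −0.0069 with a 95% interval of −0.19 to 0.18, and miR-19b-3p from miR-19a-3p by 0.17 with an interval of −0.31 to 0.64.

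The main strands also differ in base composition. The share of G and C bases was 34.8% in miR-19a-3p, 39.1% in miR-19b-3p and miR-20a-5p, 43.5% in miR-18a-5p, 47.8% in miR-17-5p and 54.5% in miR-92a-3p. At a minimum mean of 1000, sequences were matched for 154 of 190 miRNAs. The median log2 change was −0.20 for the 36 with a share under 40%, 0.13 for the 51 from 40% to 50% and 0.063 for the 67 at 50% or more. After a correction for base composition in these 154, the difference from miR-17-5p was −0.19 for miR-19a-3p (limma adjusted p = 0.0656) and 0.33 for miR-92a-3p (limma adjusted p = 0.00668). After that correction the difference between miR-92a-3p and miR-20a-5p was 0.23 (limma adjusted p = 0.137 with miR-20a-5p as base line). It passed with miR-92a-3p as base line, and 4 of the 5 pairs with miR-92a-3p differed both ways.

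**Figure D2:**
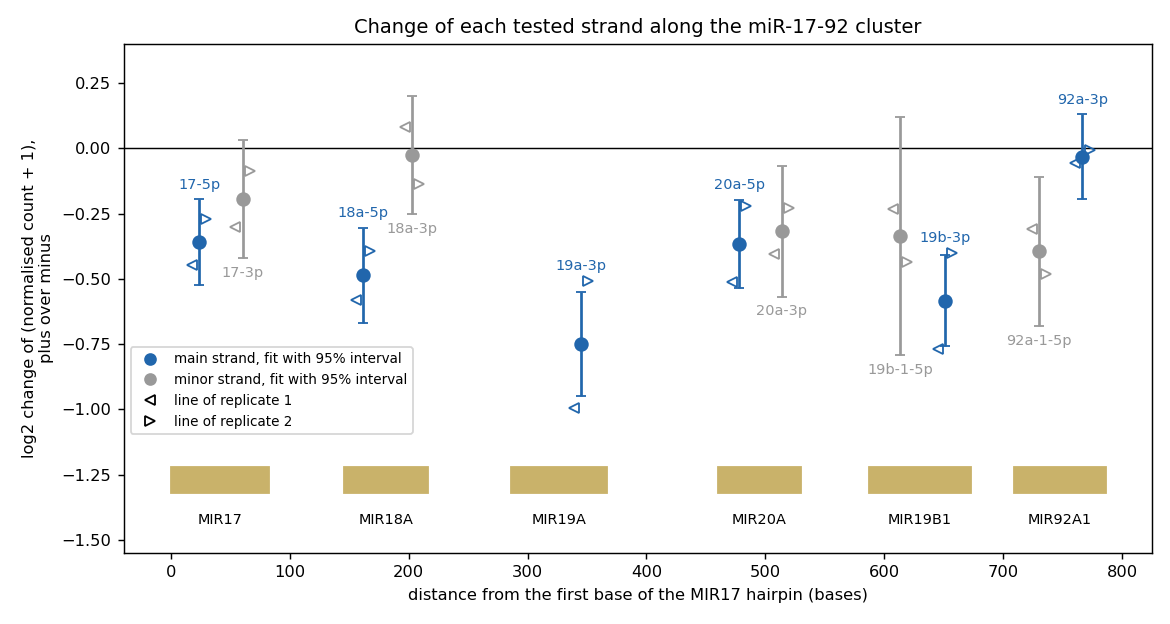
Change of the 11 tested strands (log2, plus over minus) against their distance in bases from the start of the MIR17 hairpin, main strands in blue and minor strands in grey, with the 95% interval of the fit, open triangles for the change within each line and boxes for the hairpins. The main strands lie at −0.36, −0.49, −0.75, −0.37, −0.58 and −0.03 from the start to the end of the cluster, with no steady trend along it.

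The minor strands of the cluster were rarer than their partners in every library. Of the 5 tested, 1 fell, where 15.1% of all tested miRNAs did. miR-92a-1-5p, which only the chromosome 13 copy of miR-92a encodes, had 313 and 293 normalised counts in the plus libraries, against 387 and 410 in the minus libraries. The plus libraries were both lower, with a log2 change of −0.40 (SE 0.14, limma adjusted p = 0.0314). The call was lost without any 1 of the 4 libraries and under median-ratio scaling and quantile normalization.

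The other minor strands did not pass. miR-20a-3p had 524 and 556 in the plus libraries, against 694 and 652 in the minus libraries, and its log2 change was −0.32 (limma adjusted p = 0.0504). It passed with the replicate block, at an adjusted p of 0.0356. miR-17-3p had 956 and 1013 in the plus libraries, against 1177 and 1076 in the minus libraries, at a log2 change of −0.19 (limma adjusted p = 0.213). For both strands the plus libraries lay below the minus libraries. miR-18a-3p had 1131 and 1001 in the plus libraries, against 1067 and 1102 in the minus libraries, at a log2 change of −0.03 that was 0.04 under median-ratio scaling (limma adjusted p = 0.878). Its groups overlapped. miR-19b-1-5p, the strand of the chromosome 13 copy of miR-19b, had 65.8 and 63.4 in the plus libraries, against 77.6 and 86.1 in the minus libraries (log2 change −0.34, limma adjusted p = 0.289).

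Both strands of a hairpin come from the same precursor, so their ratio was tested over the 183 hairpins of the table with both arms at a mean of at least 10. Of these, 19.7% changed, and of the 3 hairpins of the cluster that could be tested, miR-18a did. The hairpin of miR-18a is shown with both mature strands in capitals, beside that of miR-20a, whose ratio did not pass. That of miR-92a-1 is also shown, since its minor strand was called lower relative to the main strand in a separate test below. That main strand can also come from the X chromosome, so the ratio may not be that of the miR-92a-1 hairpin alone. No values were given for miR-92a-2-5p, the 5p strand of the X copy, and the part of that copy was not tested. Neither the miR-18a nor the miR-92a-1 call held with the replicate block.
MIR18A: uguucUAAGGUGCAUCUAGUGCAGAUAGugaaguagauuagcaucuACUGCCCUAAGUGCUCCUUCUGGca
MIR20A: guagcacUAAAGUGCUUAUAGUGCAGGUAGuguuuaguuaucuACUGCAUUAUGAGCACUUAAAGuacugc
MIR92A1: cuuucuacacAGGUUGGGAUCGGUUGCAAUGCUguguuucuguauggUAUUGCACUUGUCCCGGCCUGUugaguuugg
They lie at chr13:91350751-91350821, chr13:91351065-91351135 and chr13:91351314-91351391 of GRCh38.p14, on the plus strand.

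The miR-18a precursor gave 5.60 and 6.14 main (5p) strands per minor strand in plus replicates 1 and 2, against 8.88 and 7.33 in minus replicates 1 and 2. The log2 ratio of 5p to 3p was lower by 0.46 in the plus libraries (SE 0.11, limma adjusted p = 0.000774). The main strand fell and the minor strand did not pass. With the replicate number as a block the adjusted p was 0.159, and the call was lost without minus replicate 1 and without either plus library. miR-17 gave 34.97 and 34.93 main strands per minor strand in the plus libraries, against 38.7 and 39.7 in the minus libraries (log2 change −0.17, limma adjusted p = 0.356), and was called under quantile normalization at −0.45. miR-20a gave 102 and 112 in the plus libraries, against 109 and 111 in the minus libraries (log2 change −0.05, and 0.02 without plus replicate 1, limma adjusted p = 0.889).

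For miR-92a and miR-19b the main strand is shared by 2 genomic copies, so their ratio to the strand of the chromosome 13 copy was tested apart, after the data were seen. The 92a-3p strand outnumbered miR-92a-1-5p by 244 and 272 to 1 in the plus libraries, against 205 and 195 to 1 in the minus libraries. The log2 ratio of the 5p to the 3p strand was lower by 0.36 in the plus libraries (SE 0.14, limma adjusted p = 0.0430, and 0.154 with the replicate block). The 19b-3p strand outnumbered miR-19b-1-5p by 238 and 276 to 1 in the plus libraries, against 343 and 268 to 1 in the minus libraries (log2 ratio of 5p to 3p 0.25 higher, limma adjusted p = 0.584). Relative to the main strand, the minor strand was thus higher in the plus libraries for miR-18a and lower for miR-92a in the fits without a block. By arm both went the same way, with the 5p strand lower relative to the 3p strand. Neither call held with the replicate block.

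**Figure D3:**
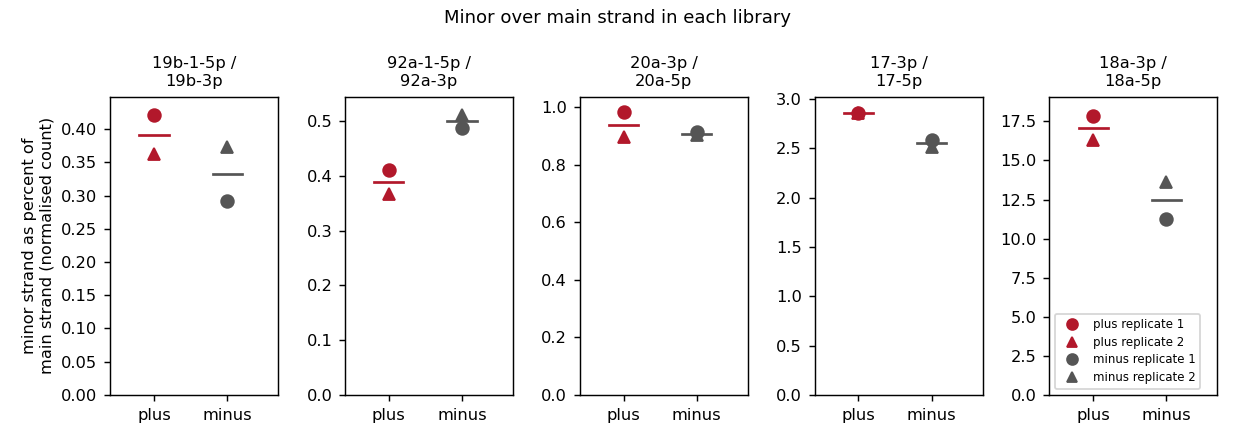
Minor strand as a percentage of the main strand in each library, with a separate axis from 0 for each pair, plus in red left of minus in grey, circles for replicate 1, triangles for replicate 2 and a bar at each group mean. miR-18a-3p is at 17.8% and 16.3% of miR-18a-5p in the plus libraries, against 11.3% and 13.6% in the minus libraries, and miR-92a-1-5p at 0.410% and 0.367% of miR-92a-3p, against 0.488% and 0.512%.

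The remaining 2 strands were near the floor of 3 reads, which is 2.83 to 3.08 normalised counts. miR-19a-5p had about 6 reads in the plus and 6 in the minus libraries, a ratio of 1.01 with a 95% exact binomial interval of 0.270 to 3.77, while its partner miR-19a-3p had at least 3831 normalised counts in each library. miR-19b-2-5p, from the X chromosome copy, had about 2 reads in the plus and 6 in the minus libraries, all 6 in replicate 1, a ratio of 0.336 (0.0332 to 1.88). These intervals cover counting error only. Reads of the strand that only the X copy of miR-19b encodes were thus few beside those of the chromosome 13 copy.

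The paralog clusters carry the same seeds on other chromosomes. The miR-106b-25 cluster on chromosome 7 lies in an intron of MCM7, a replication factor, and the miR-106a-363 cluster lies on the X chromosome. Of their 14 strands listed, 11 were in the table and 9 were tested. Of these 9, 4 fell and none rose, where 15.1% of all tested miRNAs fell and 13.4% rose, and their median log2 change was −0.22. The number that fell was 1 under median-ratio scaling and 0 to 2 with a library left out. The rare miR-106a-5p differs from the abundant miR-17-5p only at base 1, and miR-18b-5p from miR-18a-5p at 1 base. Whether their counts hold reads of the abundant strands was not tested. Their sequences show the shared seeds in capitals, with miR-92b-3p and miR-32-5p as further carriers of the miR-92 seed.
miR-106b-5p: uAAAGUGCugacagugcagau
miR-93-5p: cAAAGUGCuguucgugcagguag
miR-106a-5p: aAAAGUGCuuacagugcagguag
miR-18b-5p: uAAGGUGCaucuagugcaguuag
miR-25-3p: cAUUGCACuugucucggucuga
miR-92b-3p: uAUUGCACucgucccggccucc
miR-32-5p: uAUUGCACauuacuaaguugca

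The strands of the whole table were then grouped by the 4 seeds of the cluster, so the main strands reported above are counted again. Of the 6 strands with the miR-17 seed, 5 fell, namely miR-17-5p, miR-20a-5p, miR-93-5p, miR-106a-5p and miR-106b-5p. Since miR-106a-5p is so like miR-17-5p in sequence, its fall may not be separate from that of miR-17-5p, which was not tested. Both strands with the miR-19 seed, miR-19a-3p and miR-19b-3p, fell, as did 1 of 2 with the miR-18 seed, miR-18a-5p. Among all tested miRNAs, 15.1% fell. Of the 6 strands with the miR-92 seed, 4 were tested and none passed, with changes from −0.24 to 0.16 on the log2 scale. Summed over the strands in the table, the miR-17 seed had 138467 and 150316 normalised counts in the plus libraries, against 183783 and 175748 in the minus libraries. The miR-92 seed summed to 122341 and 124261 in the plus libraries, against 122566 and 123927 in the minus libraries. The sums of the miR-17 seed did not overlap between the groups, and those of the miR-92 seed did.

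miR-106b-5p had 7818 and 7766 normalised counts in the plus libraries, against 10407 and 9141 in the minus libraries (log2 change −0.32, limma adjusted p = 0.00435), a call lost without minus replicate 1 and without either plus library. miR-93-5p had 43762 and 45041 in the plus libraries, against 51659 and 51456 in the minus libraries (log2 change −0.22, limma adjusted p = 0.0384), a call lost under median-ratio and TMM scaling and without any 1 of the 4 libraries. miR-25-3p, the miR-92 relative on the same transcript, had 29011 and 27691 in the plus libraries, against 27743 and 28115 in the minus libraries. Its groups overlapped, and its log2 change was 0.02, which was −0.04 with equal totals and −0.10 under quantile normalization (limma adjusted p = 0.874). Relative to miR-17-5p it changed by 0.38 (SE 0.094, limma adjusted p = 0.000878), and miR-106b-5p by 0.04 (limma adjusted p = 0.804).

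Among the rarer paralogs, miR-106a-5p had 121 and 132 normalised counts in the plus libraries, against 157 and 205 in the minus libraries (log2 change −0.50, limma adjusted p = 0.0339). The call was lost without minus replicate 2, without either plus library, and under median-ratio scaling and quantile normalization. miR-25-5p had 886 and 1053 in the plus libraries, against 1070 and 1340 in the minus libraries (log2 change −0.31, limma adjusted p = 0.0446). Its call was lost under the same alternatives and with equal totals, and its log2 change was −0.15 without minus replicate 2. miR-18b-5p had 22.7 and 21.5 in the plus libraries, against 31.2 and 37.9 in the minus libraries, and did not pass (log2 change −0.62, limma adjusted p = 0.165). miR-20b-5p had 22.6 and 12.3 in the plus libraries, against 8.08 and 17.04 in the minus libraries (log2 change 0.47, limma adjusted p = 0.460), and its change was −0.03 without minus replicate 1. miR-106b-3p and miR-93-3p did not pass, at log2 changes of 0.10 and −0.16. miR-18b-3p and miR-363-3p, with at most 5 reads in a library, were not tested. Outside these clusters, miR-92b-3p had 15625 and 15240 in the plus libraries, against 13374 and 14224 in the minus libraries (log2 change 0.16, limma adjusted p = 0.151). miR-32-5p had 1491 and 1499 in the plus libraries, against 2187 and 1420 in the minus libraries, so its groups overlapped (log2 change −0.24, limma adjusted p = 0.151). miR-367-3p had at most 4.07 normalised counts in a library and was not tested.

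**Figure D4:**
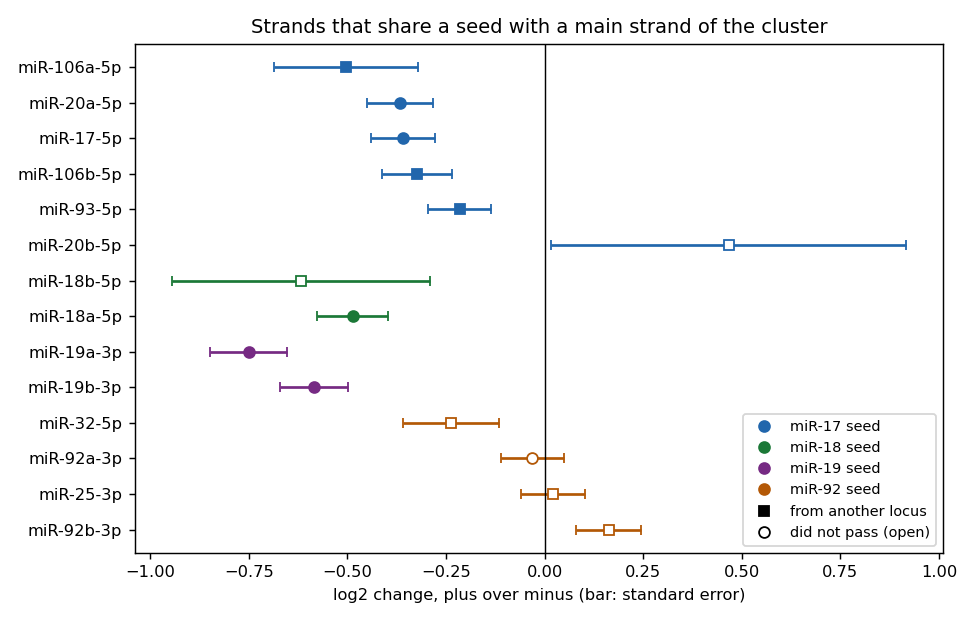
Change (log2, plus over minus) with its standard error of the 14 tested strands that share a seed with a main strand of the cluster, coloured by seed, circles for the cluster and squares for other loci, filled where the strand fell and open where it did not pass. Strands with the miR-17, miR-18 and miR-19 seeds lie below 0 except miR-20b-5p at 0.47, and strands with the miR-92 seed lie between −0.24 and 0.16.

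The same arm ratios were taken in the paralog hairpins. miR-106b gave 1.147 and 1.042 5p strands per 3p strand in the plus libraries, against 1.64 and 1.31 in the minus libraries (log2 change −0.42, limma adjusted p = 0.000319, and 0.0976 with the replicate block). For miR-25 the log2 ratio of 5p to 3p was lower by 0.33 (limma adjusted p = 0.0195, and 0.0976 with the replicate block), and for miR-93 by 0.05 (limma adjusted p = 0.873). The ratio of miR-93 was called lower in 1 alternative setting. The call of miR-106b was lost without minus replicate 1 and without either plus library, and that of miR-25 without any 1 of the 4 libraries.

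Within each shRNA line there is 1 library per condition and no test. Plus replicate 1 was taken as the sh1 line because that line had no other plus library. All 6 main strands were lower in the plus library of both lines, where 39.1% of all 709 tested miRNAs were. miR-92a-3p was so by a log2 ratio of −0.057 in the sh1 line and −0.0061 in the sh2 line, about the median of all tested miRNAs. For each of the 6, the plus library was lower relative to its minus library in the sh1 line than in the sh2 line. In the sh1 line the plus library had 50.2% of the miR-19a-3p count of the minus library, and in the sh2 line 70.3%. For miR-17-5p the shares were 73.4% in the sh1 line and 82.8% in the sh2 line, and for miR-92a-3p 96.2% and 99.6%. The median log2 ratio of the main strands was −0.55 in the sh1 line and −0.33 in the sh2 line, where that of all 709 miRNAs was −0.06 and −0.0061. The minor strands miR-92a-1-5p and miR-19b-1-5p were instead lower in the sh2 line, at 71.5% and 73.6% of the minus library, than in the sh1 line, at 80.8% and 84.8%. So was miR-18a-3p, at 90.9% in the sh2 line and 105.9% in the sh1 line. The 2 other tested minor strands were lower in the sh1 line.

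Outside the seed families, 175 miRNAs with a mean of at least 1000 were ranked by how close their log2 profile over the 4 libraries, centred on its mean, came to the mean profile of the 6 main strands. The 5 nearest were miR-7-5p, miR-4521, miR-576-3p, miR-3158-3p and miR-335-5p, with root-mean-square distances of 0.0489 to 0.0557. Of the main strands, which are part of that mean, only miR-17-5p was closer than these, at 0.0432. The others were at 0.0612 for miR-20a-5p, 0.0626 for miR-18a-5p, 0.0820 for miR-19b-3p, 0.178 for miR-19a-3p and 0.209 for miR-92a-3p. miR-7-5p had 467038 and 499140 normalised counts in the plus libraries, against 632923 and 597121 in the minus libraries, and its log2 change was −0.35. The list is a description over 4 libraries of 2 groups.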

How the data were processed

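The comparison is of 2 plus with 2 minus small-RNA libraries of HCT116 cells. Per the labels' protocols, RNA was purified with a Qiagen miRNeasy kit and libraries were prepared with a TruSeq Small RNA kit whose 5' adaptor had been given random bases. The titles mention cutadapt. The submitters' processing notes list TopHat2 2.0.8b, edgeR, hg19 and GRCh37 and assign no role to any. How reads were assigned to miRNAs is not given in the sources used here. For each mature miRNA, the deposited signal is read, from its values, as a count that the authors adjusted for library size. Depending on the library, 86.9% to 100% of low values were within 0.1 of whole reads, which is too few in 1 library to run a count model. Columns named sh4 were matched to the sh2 samples by library number and index. The libraries of a group differed by more than sampling noise (chi-square per degree of freedom 78.7 for plus and 23.6 for minus).

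Values were tested with limma 3.58.1 (R 4.3.3) after log2(value + 1), with a mean-variance trend, 2 residual and 43.0 prior degrees of freedom, over 709 miRNAs averaging at least 10. A fold change on that scale understates changes of low miRNAs. In the fit of arm ratios, and in most fits relative to 1 strand, the prior was infinite, so that the pooled spread alone set the error. P-values thus rest mostly on a spread pooled over miRNAs, taken between 2 lines with 1 library each per condition. The smallest p that exact permutation of 2 against 2 libraries allows is 0.333. The replicate block pairs the libraries of an shRNA line. That pairing comes from the shared line, with plus replicate 1 assigned to the line that lacked a plus library. Deviations of same-numbered libraries correlated at 0.0555 over 709 miRNAs and at 0.177 over the 190 that averaged at least 1000, which include the 6 main strands. The strands named are all members, all paralogs, the carriers of a shared seed and the 5 nearest profiles. Members and lists were chosen with earlier results of these data known. RefSeq sequences on GRCh38.p14 matched 1078 of 1345 names, and the deposited table holds no coordinates. Alternatives were other scalings (TMM by its formula), pseudocounts, filters and priors, the block, and leaving out each library.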

Additional observations from a re-analysis of the deposited data

Results flagged for a closer look

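In 3 results the lines went opposite ways, 1 library per line and condition, and the difference between the lines was not tested. For miR-18a-3p the log2 ratio of plus to minus was 0.083 in the sh1 line and −0.14 in the sh2 line. For miR-19b-2-5p, which rests on 8 estimated reads in all, it was −2.80 in the sh1 line and 1.60 in the sh2 line. For the 5p to 3p ratio of miR-20a the log2 change was −0.11 in the sh1 line and 0.0094 in the sh2 line.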

How the results depend on the processing

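Across 17 alternative settings no member and no paralog strand rose. The number of members that fell, 6 in the main fit, was 0 with no filter on low values and 0 without a mean-variance trend, and it was 0 to 5 when 1 library was left out. The number of paralog strands that fell, 4 in the main fit, was 1 under median-ratio scaling, 2 under quantile normalization, 0 with no filter, 2 at a minimum mean of 100, 0 without a trend, 2 at a minimum mean of 1000 and 2 with the base-composition correction at that minimum, and 0 to 2 when 1 library was left out. The last pair of settings was added after the data were seen. The number of cluster hairpins with a changed arm ratio, 1 in the main fit, was 2 under quantile normalization, 0 with no filter and 0 without a trend, and 0 to 1 when 1 library was left out. The number of members whose change differed from that of miR-17-5p, 3 in the main fit, was 5 under quantile normalization and 0 without a trend, and 0 to 3 when 1 library was left out. With no filter, values near the floor enter the estimate of the pooled spread, and with 1 library left out fewer samples are fitted. The cause of the other shifts was not tested.

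With the replicate block, 113 miRNAs fell and 103 rose, and the count of cluster hairpins with a changed arm ratio was 0. Apart from the calls given above with their block values, the block changed no call of a member or paralog.

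Some values that did not pass changed sign. Under median-ratio scaling the log2 change was 0.035 for miR-18a-3p and 0.031 for miR-92a-3p. For miR-25-3p it was −0.036 with equal totals, −0.10 under quantile normalization and −0.063 with the base-composition correction. Relative to miR-17-5p, quantile normalization gave 0.059 for miR-18a-5p and 0.26 for miR-92a-1-5p, and the base-composition correction gave 0.096 for miR-20a-5p. With 1 library left out, the log2 change lay between −0.12 and 0.061 for miR-18a-3p, −0.065 and 0.0021 for miR-92a-3p, −0.012 and 0.055 for miR-25-3p, −0.029 and 0.96 for miR-20b-5p, and −0.12 and 0.018 for the arm ratio of miR-20a. Relative to miR-17-5p it lay between −0.096 and 0.14 for miR-19b-1-5p, −0.074 and 0.061 for miR-20a-5p, and −0.12 and 0.052 for miR-92a-1-5p. Strands below about 100 normalised counts have wide intervals, and the 2 near the floor of 3 reads cannot show a change of less than several fold.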
